A study of Mus musculus with 8 samples.

Results

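The transcription factor p53, encoded by Trp53 in the mouse, and 9 of its established target genes outside the BCL2 family were followed in mouse bone marrow-derived macrophages (BMDM), which are macrophages grown from marrow in culture. The 10 genes were chosen by symbol, as Trp53, Cdkn1a, Mdm2, Aen, Ccng1, Sesn1, Trp53inp1, Zmat3, Phlda3 and Gdf15. Each matched 1 of the 55401 genes in the count table, and all 10 passed the filter on low counts that left 17470 genes for testing. Macrophages called KO came from Lyz2-Cre-Mettl3fl/fl mice, which carry loxP-flanked Mettl3 alleles and Cre recombinase under the myeloid Lyz2 promoter. Macrophages called WT came from Mettl3fl/fl mice, which carry the same flanked alleles without Cre. The Mettl3 product is the enzyme that places N6-methyladenosine on mRNA. The 4 groups were KO with LPS and nigericin, KO with PBS, WT with LPS and nigericin, and WT with PBS, with 2 libraries each. Stimulated cells received 50 ng/ml LPS, a bacterial TLR4 ligand, overnight and then 10 µM nigericin, a potassium ionophore that activates NLRP3, for 3 h according to the sample labels. The series text leaves the nigericin time at 1 h or 3 h. Every stimulated library received both agents, so their shares in a response cannot be told apart. No group carried Cre without the flanked alleles, and the age and number of mice were not given in the sources used here.

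p53 is a stress-activated transcription factor that is controlled mainly through the stability of its protein. Damage or other stress releases it from MDM2, the ubiquitin ligase that marks it for degradation, and p53 then activates genes for cell cycle arrest, repair, metabolism and cell death. One of those genes is Mdm2 itself, which closes a negative feedback loop. Because this control acts on the protein, the level of Trp53 mRNA does not measure p53 activity.

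Sequences around annotated transcription starts are shown for 4 members that rose after stimulation in both genotypes, and for 1 that fell. RefSeq windows of 300 bases (250 before and 50 after a start, GRCm38.p6) were found for 8 of the 10 genes, in 12 windows. Trp53inp1 and Zmat3 had no matched window. Capitals mark matches to the p53 half-site consensus, a motif of 10 bases that reads the same on both strands, and each window is printed 5′ to 3′ on the strand of its gene.
Cdkn1a, chr17:29090729-29091028, plus strand: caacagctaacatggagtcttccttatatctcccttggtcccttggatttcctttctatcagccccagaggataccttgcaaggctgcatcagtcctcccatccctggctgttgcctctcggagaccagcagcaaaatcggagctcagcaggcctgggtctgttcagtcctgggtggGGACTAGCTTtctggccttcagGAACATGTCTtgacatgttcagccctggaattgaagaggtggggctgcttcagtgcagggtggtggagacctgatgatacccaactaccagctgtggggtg
Mdm2, chr10:117710709-117711008, minus strand: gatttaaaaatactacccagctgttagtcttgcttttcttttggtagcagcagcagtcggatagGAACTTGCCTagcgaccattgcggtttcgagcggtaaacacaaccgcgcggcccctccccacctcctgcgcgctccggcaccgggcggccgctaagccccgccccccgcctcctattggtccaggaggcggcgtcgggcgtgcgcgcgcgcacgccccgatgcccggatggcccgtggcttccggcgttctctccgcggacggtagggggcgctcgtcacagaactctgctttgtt
Aen, chr7:78895808-78896107, plus strand: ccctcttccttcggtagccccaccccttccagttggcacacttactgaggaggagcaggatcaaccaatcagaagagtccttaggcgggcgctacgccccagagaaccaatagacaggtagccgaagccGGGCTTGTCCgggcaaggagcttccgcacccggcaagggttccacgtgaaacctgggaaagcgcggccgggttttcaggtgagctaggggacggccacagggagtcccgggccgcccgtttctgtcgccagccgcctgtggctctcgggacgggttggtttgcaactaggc
Ccng1, chr11:40755237-40755536, minus strand: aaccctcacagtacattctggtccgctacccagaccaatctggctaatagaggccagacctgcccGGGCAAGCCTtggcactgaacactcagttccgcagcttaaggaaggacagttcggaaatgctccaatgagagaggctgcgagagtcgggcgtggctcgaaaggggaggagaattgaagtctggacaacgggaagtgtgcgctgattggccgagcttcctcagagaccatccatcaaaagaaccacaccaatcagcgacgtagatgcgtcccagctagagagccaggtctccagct
Sesn1, chr10:41887189-41887488, plus strand: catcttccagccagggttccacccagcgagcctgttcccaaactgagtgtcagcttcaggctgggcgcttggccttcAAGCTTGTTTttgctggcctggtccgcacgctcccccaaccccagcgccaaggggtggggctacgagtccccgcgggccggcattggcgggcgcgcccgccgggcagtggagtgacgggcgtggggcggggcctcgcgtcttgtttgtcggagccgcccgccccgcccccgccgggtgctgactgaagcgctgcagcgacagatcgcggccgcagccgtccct
Cdkn1a had 2 windows, and the printed one belongs to the upstream start. The other, chr17:29093519-29093818, lies downstream of it. The printed window held 2 half-sites, GGACTAGCTT at -73 to -64 and GAACATGTCT at -51 to -42 relative to its own start. Such a pair, with at most 13 bases between its members, was found in 24 of 32817 RefSeq windows of the mouse (0.0731%). A single half-site was found in 8.36% of those windows. Both counts took exact matches alone, and near matches were left in lower case. Near matches include tgacatgttc directly after GAACATGTCT in Cdkn1a and agacctgccc directly before GGGCAAGCCT in Ccng1. The marked letters therefore need not cover a whole p53 site. Mdm2 held GAACTTGCCT at -186 to -177, Ccng1 held GGGCAAGCCT at -185 to -176 and Aen held GGGCTTGTCC at -121 to -112. A second, overlapping Aen window held the same Aen site. Sesn1, which fell, held AAGCTTGTTT at -173 to -164, and Trp53, whose window is not printed, held GGACTTGCCC at -75 to -66. The letters were absent from the windows of Phlda3 and Gdf15 and from the other windows of Cdkn1a and Sesn1. In all, 6 of the 8 genes and 7 of the 12 windows held a half-site. The genes were chosen as p53 targets, and these matches describe letters in a window, not binding sites.

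The libraries held 55032057 to 65487739 counts each. Whether the 2 libraries within each group stem from different mice or dishes is not stated, and the p-values therefore describe a spread between libraries that may be technical. Mettl3, the deleted gene, was at 9.08 and 7.87 CPM (read counts scaled by library size and composition) in stimulated KO libraries, against 28.2 and 23.4 CPM in stimulated WT libraries. With PBS it was at 5.63 and 6.33 CPM in KO libraries, against 13.6 and 13.3 CPM in WT libraries. Counts covered the whole gene, so remaining Mettl3 reads can include transcripts that lack only the flanked exons. All 8 macrophage markers were detected, and 2 of the 8 were called lower in KO in each treatment. Their summed level was 26900 to 28100 CPM in stimulated KO and 45600 to 48300 CPM in stimulated WT, and 26700 to 27700 CPM in KO and 42200 to 45200 CPM in WT with PBS. The sum includes Lyz2, the gene whose promoter drives Cre in KO, and its part in the lower sum was not tested. The sum therefore does not measure the number of macrophages. In the other cell types, at least 1 marker each of neutrophils (Ly6g, Retnlg), dendritic cells (Flt3), T cells (Cd3e) and mast cells (Mcpt4) had no count in any library. The summed level of 6 fibroblast markers was 293 to 328 CPM in stimulated KO and 114 to 116 CPM in stimulated WT, and 255 to 272 CPM in KO with PBS and 163 to 183 CPM in WT with PBS. In bulk RNA, fewer cells of a type and less RNA per cell cannot be told apart. The summed level of 8 neutrophil markers was 30.4 to 33.5 CPM in stimulated KO and 5.6 to 5.89 CPM in KO with PBS, and 28.1 to 35.4 CPM in stimulated WT and 3.9 to 3.96 CPM in WT with PBS. The summed level of 4 genes taken as markers of RNA quality was 397 to 812 CPM in stimulated WT and 457 to 474 CPM in stimulated KO. With PBS it was 712 to 902 CPM in WT and 544 to 649 CPM in KO. The part of cell type and RNA quality in the results was not tested.

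Per kilobase of exon, Cdkn1a was the most abundant member in all 4 groups. Its level was 87.6 ± 0.158 CPM per kb in stimulated KO and 44.9 ± 3.32 in KO with PBS, and 69.9 ± 2.16 in stimulated WT and 51.7 ± 2.67 in WT with PBS (SD, n = 2 each). The member next to Cdkn1a depended on treatment. Sesn1 was second with PBS, at 38.9 ± 8.21 CPM per kb in KO and 36.9 ± 5.86 in WT, and stood lower in the order after stimulation, behind Cdkn1a, Ccng1, Mdm2 and Trp53, at 9.48 ± 0.1 in KO and 8.54 ± 1 in WT. Ccng1 and Mdm2 came next to Cdkn1a after stimulation: Ccng1 was at 41.8 ± 0.93 CPM per kb in KO and 34.5 ± 1.06 in WT, and Mdm2 was at 29.0 ± 0.221 in KO and 35.2 ± 1.16 in WT. In stimulated WT these neighbours did not differ beyond their spread. Trp53 itself lay in the middle of the order, at 14.9 ± 0.479 CPM per kb in stimulated KO and 11.4 ± 0.316 in KO with PBS, and 16.2 ± 0.874 in stimulated WT and 12.9 ± 0.0346 in WT with PBS. In KO with PBS, Trp53 and Trp53inp1 (11.4 ± 0.377) had levels within each other's spread, as had Phlda3 (5.8 ± 0.836) and Gdf15 (5.39 ± 2.73). Zmat3 was the least abundant member per kilobase in every group, between 1.26 ± 0.162 in stimulated WT and 1.75 ± 0.0513 in WT with PBS.

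**Figure D1:**
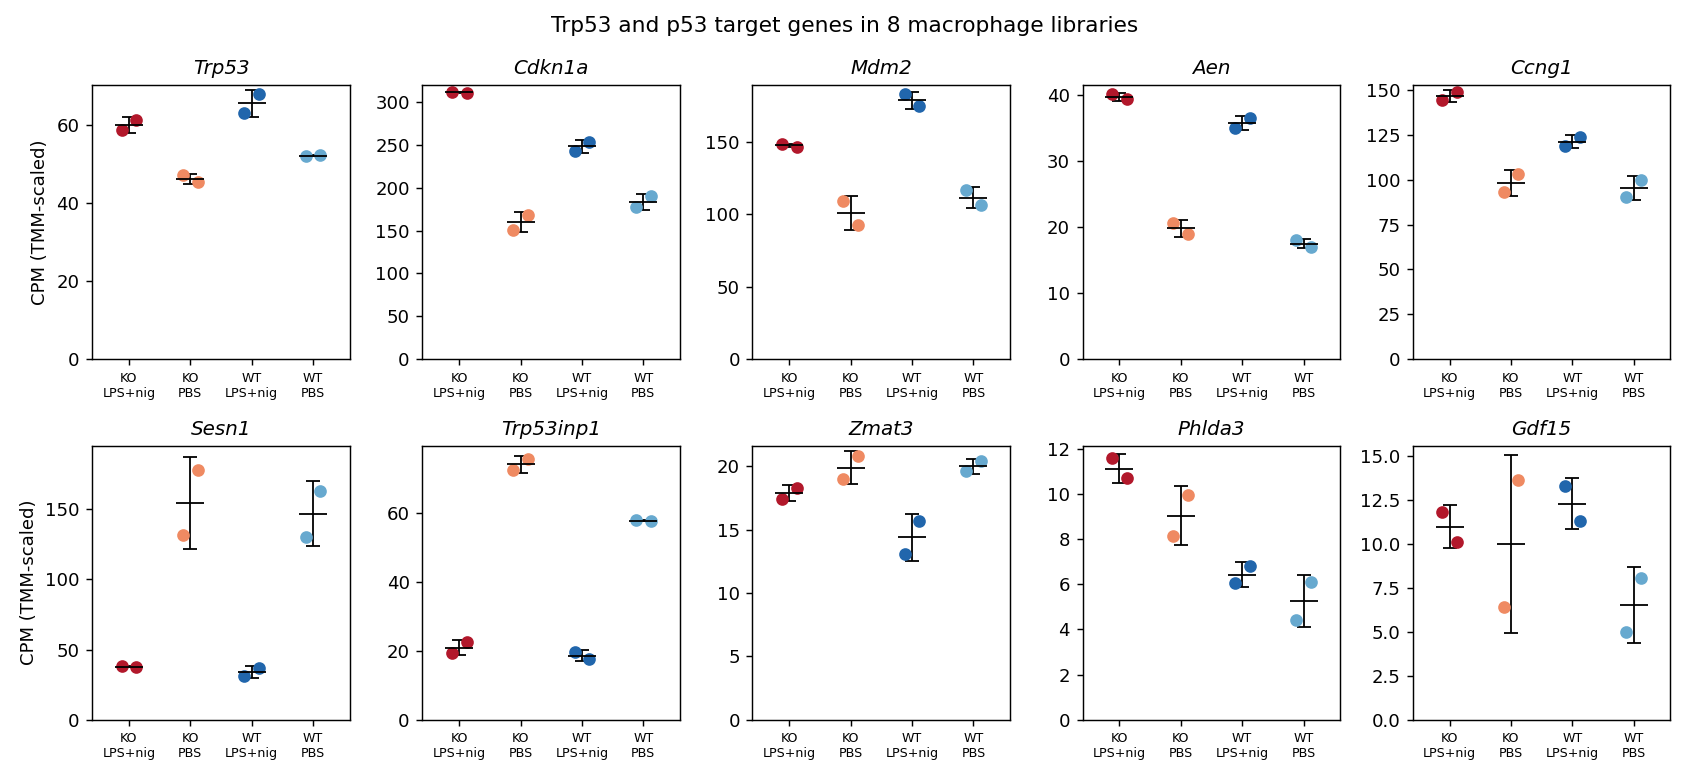
CPM of each of the 10 genes in every library, by group, with 1 point per library, and black bars for the mean and SD (n = 2 per group). Trp53, Cdkn1a, Mdm2, Aen and Ccng1 sat higher in stimulated than in PBS libraries of both genotypes, with no overlap. Sesn1, Trp53inp1 and Zmat3 sat lower in both genotypes, with no overlap. The share of all tested genes without overlap was not counted.

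Stimulation with LPS and nigericin changed 7 of the 10 genes in KO macrophages and 8 of 10 in WT macrophages (edgeR's quasi-likelihood test, Benjamini-Hochberg adjusted p at or under 0.05). The same 5 genes, Trp53, Cdkn1a, Mdm2, Aen and Ccng1, rose in both genotypes. Sesn1 fell to 0.244 times its PBS level in KO and to 0.232 times in WT, and Trp53inp1 fell to 0.283 times in KO and to 0.322 times in WT. Zmat3 fell in WT and did not pass the test in KO, and Phlda3 and Gdf15 passed in neither. Stimulation moved much of the transcriptome, so these counts stand against a high background: 39.1% of the 17470 tested genes were called in KO and 40.5% in WT. DESeq2 called 7 members in KO, beside 41.3% of all genes, and 9 in WT, beside 43.6%. An unadjusted p under 0.05 was reached by 7 in KO, beside 47.3%, and by 9 in WT, beside 48.6%. Called genes that rose were 20.2% of those tested in KO, where 5 of 10 members rose, and 20.6% in WT, where 5 of 10 rose. Called genes that fell were 19% of those tested in KO, where 2 members fell, and 20% in WT, where 3 fell. The median log2 difference of the 10 genes was 0.34 in KO and 0.34 in WT, beside -0.03 and -0.01 over all tested genes. With library size as the only scaling, the median of all genes moved to -0.112 in KO and -0.197 in WT, and higher genes made up 45.5% of the calls in KO (51.6% with composition factors) and 36.5% in WT (50.7%). Under that scaling 5 members still rose in KO, and 3 rose in WT, where Trp53 (adjusted p = 0.147) and Ccng1 (adjusted p = 0.122) were no longer called. Without WT PBS library 1, 5 members were called in WT, and 3 rose without it or without stimulated WT library 2.

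Trp53 encodes the factor itself (ENSMUSG00000059552, chr11:69580359-69591873, plus strand, GRCm38). Its mRNA was at 58.7 and 61.5 CPM in stimulated KO, against 47.2 and 45.4 CPM in KO with PBS, and at 63.1 and 68.1 CPM in stimulated WT, against 52.1 and 52.3 CPM in WT with PBS. Every stimulated library lay above every PBS library of its genotype, and the shift was small. The log2 difference was 0.38 ± 0.07 in KO (SE, adjusted p = 0.00662) and 0.33 ± 0.07 in WT (adjusted p = 0.0115). The KO call was lost without stimulated KO library 2 (adjusted p = 0.0553). The WT call was lost without WT PBS library 1 (0.0645), WT PBS library 2 (0.0603) or stimulated WT library 2 (0.0504).

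Mdm2 (ENSMUSG00000020184, chr10:117688875-117710758, minus strand) encodes the ligase that opposes p53. It was at 148.4 and 146.8 CPM in stimulated KO, against 109.2 and 92.6 CPM in KO with PBS, and at 183 and 174.6 CPM in stimulated WT, against 116.6 and 106.4 CPM in WT with PBS. The groups did not overlap in either genotype. Mdm2 rose by 0.55 ± 0.10 on the log2 scale in KO (adjusted p = 0.00378) and by 0.68 ± 0.10 in WT (adjusted p = 0.00139).

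Among other regulators of p53 protein, 2 rose and 5 fell in KO, and 3 rose and 5 fell in WT, of 27 tested genes in a list of 29. Those called were 25.9% in KO and 29.6% in WT, below the 39.1% and 40.5% of all tested genes. The list median was -0.23 in KO and -0.16 in WT, beside -0.03 and -0.01 over all tested genes. Mdm4, the partner of MDM2 that blocks p53 activity, had log2 differences of 0.29 ± 0.13 in KO (adjusted p = 0.123) and 0.33 ± 0.13 in WT (adjusted p = 0.0843). Ppm1d, a phosphatase that dampens p53 signalling, fell, with a log2 difference of -0.40 ± 0.11 in KO (adjusted p = 0.0239) and -0.50 ± 0.11 in WT (adjusted p = 0.00927). The KO call of Ppm1d was lost without any 1 of the 4 KO libraries (adjusted p = 0.0558 to 0.135), and its WT call without WT PBS library 1 (0.0628). Daxx, an adaptor that works with MDM2, had the largest rise of the named regulators, 1.28 ± 0.14 in KO (adjusted p = 0.000427) and 1.07 ± 0.14 in WT (adjusted p = 0.000969). Rchy1, another ubiquitin ligase for p53, fell, with a log2 difference of -0.80 ± 0.12 in KO (adjusted p = 0.00159) and -0.92 ± 0.12 in WT (adjusted p = 0.000842). Sirt1, a deacetylase that acts on p53, fell, with a log2 difference of -0.82 ± 0.13 in KO (adjusted p = 0.00212) and -0.86 ± 0.13 in WT (adjusted p = 0.00164). Cdkn2a, whose ARF product inhibits MDM2, stayed between 0 and 0.286 CPM in every library. Its log2 difference after stimulation was -0.85 ± 1.11 in KO (SE, adjusted p = 0.588) and -2.48 ± 1.27 in WT (SE, adjusted p = 0.156 by edgeR), and the WT difference passed the threshold without library 2 of stimulated WT (adjusted p = 0.0474). These counts depended on single libraries. Without any 1 of the 4 KO libraries, 3 fell in KO, and 1 rose without KO PBS library 1 or stimulated KO library 2. In WT, 2 fell without WT PBS library 1, 3 without WT PBS library 2 and 8 without stimulated WT library 1, and 1 rose without any 1 of these 3 libraries. With library size alone, 2 rose and 8 fell in KO, and 1 rose and 9 fell in WT.

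Cdkn1a (ENSMUSG00000023067, chr17:29090976-29100727, plus strand) encodes p21, the cyclin-dependent kinase inhibitor that carries p53-driven arrest. It was at 311.6 and 310.8 CPM in stimulated KO, against 151.2 and 167.9 CPM in KO with PBS, and at 242.9 and 253.8 CPM in stimulated WT, against 177 and 190.4 CPM in WT with PBS. Both stimulated groups lay above both PBS groups, with the KO libraries at both ends of the order. Cdkn1a rose by 0.96 ± 0.08 on the log2 scale in KO (1.95-fold, adjusted p = 9.02e-05) and by 0.44 ± 0.08 in WT (1.35-fold, adjusted p = 0.00366). An antisense transcript on the minus strand, AC167363.2, overlaps 273 exon bases of Cdkn1a (7.68%). Its own count was at most 0.659% of that of Cdkn1a, and whether the counting used strand was not given.

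Ccng1 (chr11:40748552-40755311, minus strand) encodes cyclin G1, which recruits a phosphatase that acts on MDM2. It was at 144.3 and 148.9 CPM in stimulated KO, against 93 and 103.2 CPM in KO with PBS, and at 118.6 and 123.9 CPM in stimulated WT, against 90.5 and 99.9 CPM in WT with PBS. No stimulated library overlapped a PBS library of its genotype. The log2 rise was 0.58 ± 0.08 in KO (adjusted p = 0.0016) and 0.35 ± 0.08 in WT (adjusted p = 0.0146). The WT call was lost without WT PBS library 1 (adjusted p = 0.0951) or stimulated WT library 2 (0.0697).

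Aen (chr7:78895854-78911209, plus strand), an exonuclease gene whose product enhances apoptosis, was at 40.2 and 39.4 CPM in stimulated KO, against 20.7 and 18.9 CPM in KO with PBS, and at 35.1 and 36.5 CPM in stimulated WT, against 18 and 17 CPM in WT with PBS. The stimulated and PBS libraries were far apart in both genotypes, with log2 rises of 1.01 ± 0.09 in KO (2.01-fold, adjusted p = 0.00014) and 1.03 ± 0.09 in WT (2.05-fold, adjusted p = 0.000123).

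Sesn1 and Trp53inp1 ran opposite to these targets. Sesn1 (chr10:41809935-41908424, plus strand) encodes sestrin 1, a stress protein that restrains mTORC1. It was at 38 and 37.5 CPM in stimulated KO, against 131.6 and 177.8 CPM in KO with PBS, and at 31.2 and 36.8 CPM in stimulated WT, against 130.3 and 163.2 CPM in WT with PBS. The PBS libraries of Sesn1 spread widely, yet all lay above the stimulated ones. Sesn1 fell, with a log2 difference of -2.04 ± 0.18 in KO (adjusted p = 0.000149) and -2.11 ± 0.18 in WT (adjusted p = 0.000127). Trp53inp1 (chr4:11156431-11174379, plus strand) encodes a nuclear stress protein that promotes p53 phosphorylation and autophagy. It was at 19.3 and 22.5 CPM in stimulated KO, against 72.3 and 75.7 CPM in KO with PBS, and at 19.7 and 17.5 CPM in stimulated WT, against 57.8 and 57.5 CPM in WT with PBS. It fell, with a log2 difference of -1.82 ± 0.10 in KO (adjusted p = 2.06e-05) and -1.63 ± 0.10 in WT (adjusted p = 3.38e-05).

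Zmat3 (chr3:32334792-32366014, minus strand) encodes an RNA-binding zinc finger protein that acts downstream of p53 in growth control. It was at 17.4 and 18.3 CPM in stimulated KO, against 19 and 20.8 CPM in KO with PBS, and at 13.1 and 15.7 CPM in stimulated WT, against 19.6 and 20.4 CPM in WT with PBS. The stimulated libraries were the lower ones in both genotypes. The log2 difference was -0.15 ± 0.12 in KO (95% interval -0.43 to 0.12, adjusted p = 0.349), and Zmat3 fell in WT, with -0.47 ± 0.12 (adjusted p = 0.0174). The WT call was lost without WT PBS library 1 (adjusted p = 0.0587), WT PBS library 2 (0.0821) or stimulated WT library 1 (0.0708).

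Phlda3 and Gdf15 were low and variable. Phlda3 (chr1:135766119-135769136, plus strand) encodes a repressor of AKT. It was at 11.6 and 10.7 CPM in stimulated KO, against 8.12 and 9.96 CPM in KO with PBS, and at 6.04 and 6.81 CPM in stimulated WT, against 4.43 and 6.08 CPM in WT with PBS. The treatment groups of Phlda3 were separate in KO and overlapped in WT, with log2 differences of 0.30 ± 0.19 in KO (95% interval -0.15 to 0.74, adjusted p = 0.263) and 0.29 ± 0.19 in WT (-0.16 to 0.74, adjusted p = 0.273). Gdf15 (chr8:70629393-70632456, minus strand) encodes a secreted stress cytokine. It was at 11.8 and 10.1 CPM in stimulated KO, against 6.4 and 13.6 CPM in KO with PBS, and at 13.3 and 11.3 CPM in stimulated WT, against 4.97 and 8.05 CPM in WT with PBS. The KO PBS libraries of Gdf15 enclosed the stimulated ones. Its log2 difference was 0.13 ± 0.37 in KO (-0.74 to 1.01, adjusted p = 0.814) and 0.92 ± 0.37 in WT (0.03 to 1.80, adjusted p = 0.0933), and the WT difference was called by DESeq2 (adjusted p = 0.0373) and without either KO PBS library (0.0327 and 0.0336), within a range of 0.0327 to 0.345 over the alternatives.

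**Figure D2:**
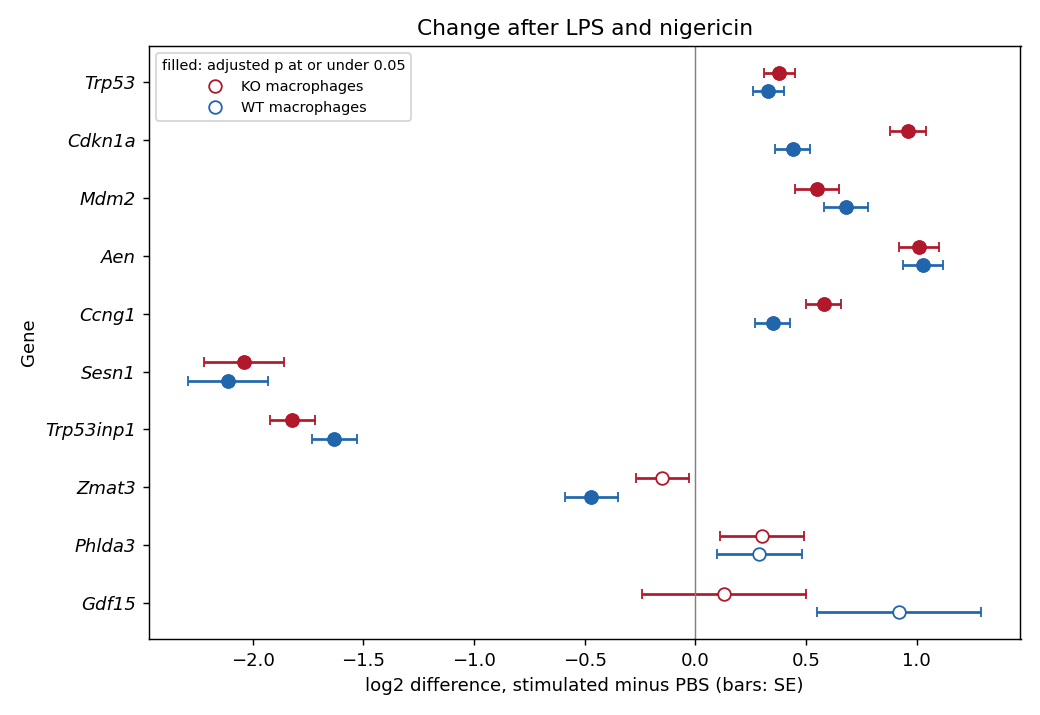
Log2 difference between LPS and nigericin and PBS for each of the 10 genes in KO and in WT, with bars of 1 SE (n = 2 libraries per group). The 5 genes that rose and the 2 that fell in both genotypes are filled in both, and Zmat3 is filled in WT and open in KO.

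Other direct p53 targets moved in both directions. Of 41 tested genes in a list of 42, 12 rose and 12 fell in KO, and 12 rose and 11 fell in WT. Those called were 58.5% in KO and 56.1% in WT, beside 39.1% and 40.5% of all tested genes. List medians were 0.12 in KO and 0.06 in WT, beside -0.03 and -0.01 over all tested genes. With library size alone, 12 rose and 13 fell in KO, and 10 rose and 13 fell in WT. Fas, a death receptor, rose by 1.81 ± 0.15 on the log2 scale in KO (adjusted p = 0.000134) and by 2.21 ± 0.16 in WT (adjusted p = 5.73e-05). Rap2b, a small GTPase, rose by 1.39 ± 0.06 in KO (adjusted p = 6.05e-06) and by 1.61 ± 0.06 in WT (adjusted p = 3.57e-06). Among those that fell were Ephx1, an epoxide hydrolase, with -3.48 ± 0.11 in KO (adjusted p = 1.81e-06) and -2.78 ± 0.11 in WT (adjusted p = 3.72e-06), and Thbs1, the matrix protein thrombospondin 1, with -2.82 ± 0.26 in KO (adjusted p = 0.000185) and -4.75 ± 0.28 in WT (adjusted p = 2.38e-05). The metalloreductase gene Steap3 fell, with a log2 difference of -1.63 ± 0.10 in KO (adjusted p = 3.1e-05) and -1.39 ± 0.10 in WT (adjusted p = 6.25e-05). Xpc, a damage sensor of nucleotide excision repair, fell, with a log2 difference of -1 ± 0.10 in KO (adjusted p = 0.000232) and -0.97 ± 0.10 in WT (adjusted p = 0.000272). Sesn2, the paralogue of Sesn1, rose by 1.27 ± 0.11 in WT (adjusted p = 0.000165), where Sesn1 fell, and had a log2 difference of 0.32 ± 0.11 in KO (adjusted p = 0.0645).

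p53 represses many cell cycle genes through p21 and the DREAM complex. Of 21 such genes, 2 rose and 6 fell in KO, and 2 rose and 12 fell in WT. Those called were 38.1% in KO, near the 39.1% of all tested genes, and 66.7% in WT, beside 40.5%. List medians were -0.46 in KO and -1.12 in WT, beside -0.03 and -0.01 over all tested genes. E2f1, an activator of S phase genes, rose by 1.04 ± 0.10 in KO (adjusted p = 0.000203) and by 1.03 ± 0.10 in WT (adjusted p = 0.000211), and Mki67, a marker of cycling cells, rose by 1.38 ± 0.24 in KO (adjusted p = 0.00364) and by 1.13 ± 0.24 in WT (adjusted p = 0.00857). E2f2 fell, with a log2 difference of -1.99 ± 0.15 in KO (adjusted p = 7.83e-05) and -1.82 ± 0.15 in WT (adjusted p = 0.000119). Ccna2, the S and G2 phase cyclin A2, fell, with a log2 difference of -1.06 ± 0.28 in KO (adjusted p = 0.0238) and -2.39 ± 0.31 in WT (adjusted p = 0.000904). The 6 that fell in KO became 1 without KO PBS library 1 or stimulated KO library 2, 2 without stimulated KO library 1 and 3 without KO PBS library 2, while 11 to 12 fell in WT in every fit that left out 1 library. The KO call of Ccna2 was among those lost without KO PBS library 1 (adjusted p = 0.134) or stimulated KO library 2 (0.131).

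The BCL2 family targets of p53 were measured in the same libraries. Bax, a pore-forming death effector, rose by 0.79 ± 0.06 on the log2 scale in KO (adjusted p = 0.000103) and had a log2 difference of 0.15 ± 0.06 in WT (adjusted p = 0.104), while Pmaip1 (Noxa) rose by 2.02 ± 0.44 in KO (adjusted p = 0.01) with 0.91 ± 0.42 in WT (adjusted p = 0.132), and Bbc3 (Puma) had -0.03 ± 0.20 in KO and -0.16 ± 0.20 in WT (adjusted p = 0.935 and 0.578). Genes of the integrated stress response are driven by ATF4 and CHOP, and the list used here shares Sesn2 with the list of other direct p53 targets. Of 13 such genes, 7 rose and 1 fell in KO, and 10 rose and none fell in WT. Those called were 61.5% in KO and 76.9% in WT, beside 39.1% and 40.5% of all tested genes.

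**Figure D3:**
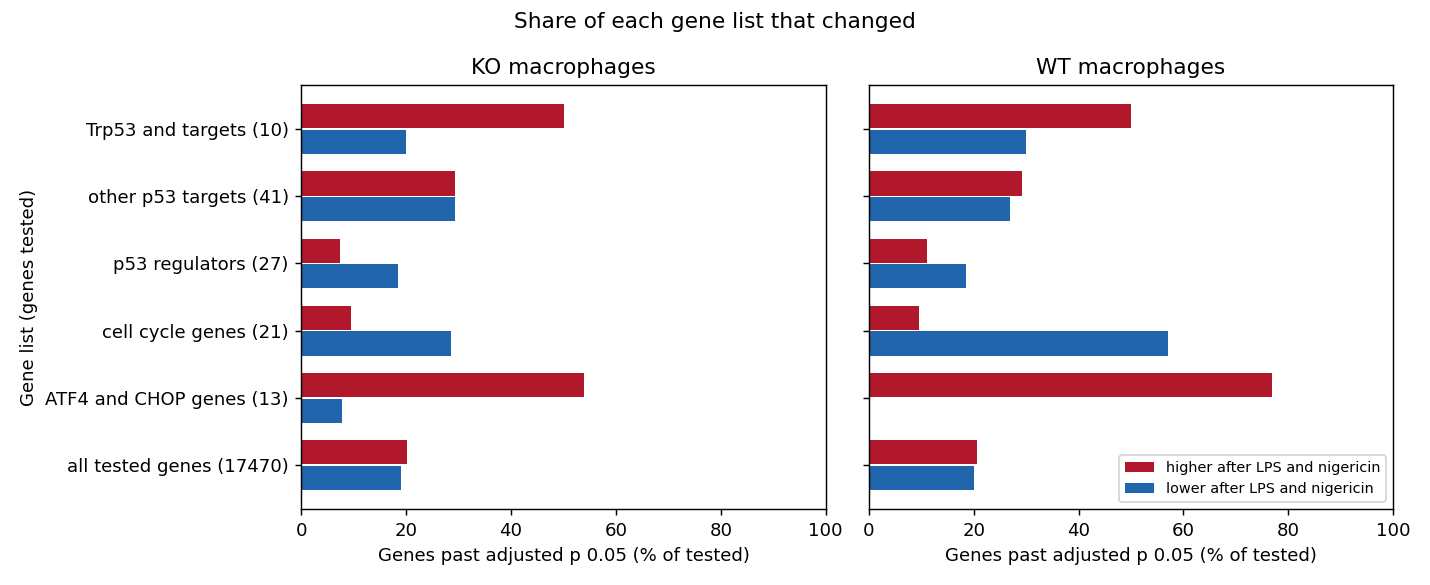
Percent of the tested genes of each list past the adjusted p threshold after LPS and nigericin, with higher and lower genes as separate bars, for KO and WT macrophages. Of the 10 p53 genes, 5 were higher and 2 lower in KO and 5 were higher and 3 lower in WT, beside bars of 20.2% higher and 19% lower for all tested genes in KO and 20.6% and 20% in WT.

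Loss of Mettl3 was compared within each treatment. None of the 10 genes passed edgeR's test between stimulated KO and stimulated WT, where 4.92% of all tested genes were called (2.91% higher and 2.01% lower in KO), nor between KO and WT with PBS, where 1.55% were called (1.2% higher and 0.355% lower in KO). After stimulation, 5 of 10 had an unadjusted p under 0.05 (Cdkn1a, Mdm2, Ccng1, Zmat3 and Phlda3), beside 19.9% of all tested genes, and DESeq2 called 2 (Cdkn1a and Phlda3), beside 9.66%. With PBS, 3 of 10 had an unadjusted p under 0.05 (Cdkn1a, Trp53inp1 and Phlda3), beside 15.4% of all tested genes, and DESeq2 called 1 (Phlda3), beside 5.44%. The median log2 difference of the 10 genes between KO and WT was 0.16 after stimulation, beside -0.00 over all tested genes, and 0.06 with PBS, beside 0.00. With library size alone, the median of all genes moved to 0.127 after stimulation, higher genes made up 81.6% of the calls (59.1% with composition factors), and 4 of 10 members were called, all higher in KO. Fibroblast markers differed in the same direction, with 5 of 6 called higher in stimulated KO and 2 of 6 with PBS, and 3 of 5 markers of B and plasma cells were called higher in stimulated KO (summed level 14.7 to 16.1 CPM in KO and 5.49 to 7.69 CPM in WT). With PBS the summed level of these 5 markers was lower in KO, at 30.2 to 37.8 CPM in KO and 51.8 to 53.4 CPM in WT, although 1 of the 5 was called higher. After stimulation 1 of the 5 was called lower in KO and 2 in WT. The part of the macrophage, fibroblast, and B and plasma cell markers in the values of the 10 genes was not tested. The genotype comparisons use the same libraries as the stimulation comparisons.

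The widest gap between genotypes was that of Phlda3. All 4 KO libraries, at 8.12 to 11.6 CPM, lay above all 4 WT libraries, at 4.43 to 6.81 CPM. The log2 difference was 0.79 ± 0.19 after stimulation (95% interval 0.34 to 1.24, adjusted p = 0.0709) and 0.78 ± 0.19 with PBS (0.33 to 1.24, adjusted p = 0.12). By DESeq2 the adjusted p was 0.0117 after stimulation and 0.0232 with PBS, the lowest values within ranges of 0.0117 to 0.275 and 0.0232 to 0.376 over the alternatives. The Phlda3 values rest on 289 to 700 counts per library.

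Cdkn1a was higher in KO after stimulation, at 311.6 and 310.8 CPM in KO and 242.9 and 253.8 CPM in WT, and lower in KO with PBS, at 151.2 and 167.9 CPM in KO and 177 and 190.4 CPM in WT. The genotypes did not overlap in either treatment. On the log2 scale KO minus WT was 0.33 ± 0.08 after stimulation (0.15 to 0.50, adjusted p = 0.0616) and -0.20 ± 0.08 with PBS (-0.38 to -0.02, adjusted p = 0.268). After stimulation the adjusted p ran from 0.00997 (DESeq2) to 0.265 over the alternatives, and it was 0.0112 with library size alone and 0.0365 with a filter of 5 CPM in 2 libraries.

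Ccng1 and Zmat3 were also higher in stimulated KO without overlap. Their log2 differences were 0.27 ± 0.08 for Ccng1 (0.08 to 0.47, adjusted p = 0.127) and 0.31 ± 0.12 for Zmat3 (0.03 to 0.59, adjusted p = 0.206). With PBS both overlapped between genotypes, with 0.04 ± 0.08 for Ccng1 (-0.15 to 0.24, adjusted p = 0.876) and -0.01 ± 0.12 for Zmat3 (-0.28 to 0.27, adjusted p = 0.998). With library size alone, both were called after stimulation (adjusted p = 0.024 for Ccng1 and 0.0498 for Zmat3), the lowest values in ranges that reached 0.41 and 0.513 over the alternatives.

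Trp53 and Mdm2 had the opposite sign. After stimulation their KO libraries lay below their WT libraries without overlap, and with PBS this held for Trp53 alone. Trp53 had log2 differences between KO and WT of -0.13 ± 0.07 after stimulation (-0.30 to 0.05, adjusted p = 0.409), which became 0.01 with library size alone, and -0.18 ± 0.07 with PBS (-0.35 to 0.00, adjusted p = 0.328). Mdm2 was at -0.28 ± 0.09 after stimulation (-0.50 to -0.05, adjusted p = 0.171) and -0.14 ± 0.09 with PBS (-0.37 to 0.08, adjusted p = 0.538). After stimulation the KO libraries of Mdm2 were the lower ones, while those of Cdkn1a, Ccng1 and Phlda3, other targets of the same factor, were the higher ones, and none of the 4 passed the test.

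Aen, Sesn1, Trp53inp1 and Gdf15 had small or uncertain differences by genotype. Even so, Aen and Sesn1 were higher in stimulated KO than in stimulated WT without overlap, and Aen also with PBS. The share of all tested genes without overlap between genotypes was not counted, so separation of libraries stands without a background. Aen was at 0.15 ± 0.09 after stimulation and 0.18 ± 0.09 with PBS (adjusted p = 0.391 and 0.382). Sesn1 was at 0.15 ± 0.17 and 0.08 ± 0.17 (0.712 and 0.896). Trp53inp1 was at 0.17 ± 0.10 after stimulation (adjusted p = 0.424) and at 0.36 ± 0.10 with PBS (0.12 to 0.60, adjusted p = 0.164), where its KO libraries lay above its WT libraries. Gdf15 was at -0.17 ± 0.37 after stimulation and 0.62 ± 0.37 with PBS, with wide intervals of -1.04 to 0.71 and -0.27 to 1.5.

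**Figure D4:**
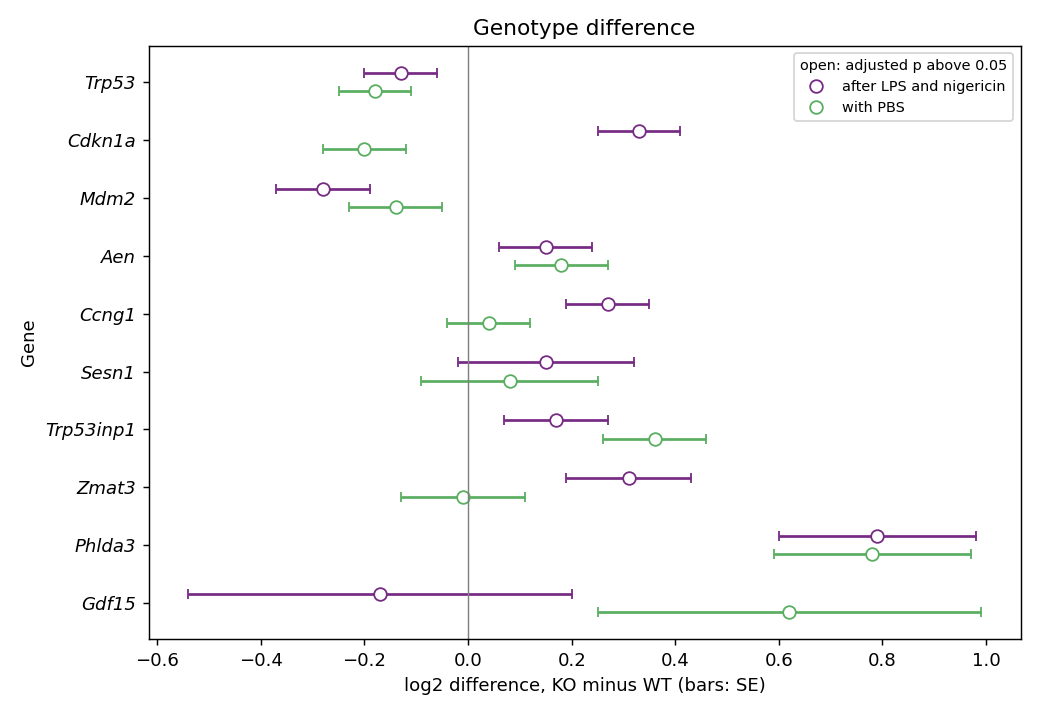
Log2 difference between KO and WT for each of the 10 genes after LPS and nigericin and with PBS, with bars of 1 SE (n = 2 libraries per group). Phlda3 lies near 0.79 and 0.78 in the 2 treatments, Cdkn1a has opposite signs (0.33 and -0.20), and no point passed the adjusted threshold.

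The responses of KO and WT macrophages to stimulation were compared by the difference of both log2 responses, KO minus WT. None of the 10 genes passed edgeR's test, where 0.498% of all tested genes were called (0.103% higher and 0.395% lower). Cdkn1a alone had an unadjusted p under 0.05, beside 10.7% of all tested genes, and DESeq2 called it alone, beside 2.84%. Its response was 0.96 ± 0.08 in KO and 0.44 ± 0.08 in WT, a difference of 0.53 ± 0.11 (95% interval 0.28 to 0.78, adjusted p = 0.114 by edgeR). The adjusted p ran from 0.005 (DESeq2) to 0.373 over the alternatives, and the difference stayed between 0.45 and 0.60 when any 1 library was left out. With library size alone the median difference of all genes moved to 0.103. For the other 9 genes the adjusted p lay between 0.549 and 1. Aen (-0.03 ± 0.12), Phlda3 (0.01 ± 0.27), Trp53 (0.05 ± 0.10) and Sesn1 (0.07 ± 0.24) were nearest to 0, and Gdf15 had the widest interval, -2.02 to 0.46 around -0.78. Within the BCL2 family list Bax passed, with a difference of 0.64 ± 0.09 (adjusted p = 0.0466), and lost the call in all 8 fits that left out 1 library (adjusted p up to 0.217).

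Among the other direct p53 targets, 1 was called higher and 4 were called lower in stimulated KO than in stimulated WT. These were 12.2% of the 41 tested, beside 4.92% of all tested genes. With library size alone the balance turned to 5 higher and 3 lower. The list median was 0.13. Sesn2 was at 34.6 and 33.8 CPM in stimulated KO and 69.2 and 70.2 CPM in stimulated WT, a log2 difference of -1.03 ± 0.11 (adjusted p = 0.00611). Ephx1 was lower with a log2 difference of -0.73 ± 0.10 (adjusted p = 0.0136). Both calls were lost without stimulated KO library 1 (adjusted p = 0.0557 for Sesn2 and 0.101 for Ephx1) or library 2 (0.0508 and 0.0562). Ddb2, a DNA damage sensor, was lower with a log2 difference of -1.41 ± 0.26 (adjusted p = 0.0315), Plk2, a stress-induced kinase, was lower with -1.14 ± 0.24 (adjusted p = 0.046), and Thbs1 was higher with 1.19 ± 0.25 (adjusted p = 0.0446). The Ddb2 call was lost without any 1 library except stimulated KO library 2, with adjusted p up to 0.104. The Plk2 call was lost without any 1 of the 4 stimulated libraries (up to 0.214). The Thbs1 call was lost without any 1 of the 4 stimulated libraries or of the WT PBS libraries (up to 0.192). With PBS, Fas alone was called, higher in KO by 0.95 ± 0.16 (adjusted p = 0.0387), and it stayed called only without WT PBS library 2 (adjusted p up to 0.175 without the others). None passed the test of the difference of responses by edgeR. Of the 41, 7 had an unadjusted p under 0.05, beside 10.7% of all tested genes, and DESeq2 called 3, beside 2.84%. No regulator of p53 protein was called between genotypes by edgeR or DESeq2 in either treatment. Of the 27 tested, 3 had an unadjusted p under 0.05 after stimulation, beside 19.9% of all tested genes, and 1 with PBS, beside 15.4%.

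Of the 21 cell cycle genes, 6 (28.6%) were called higher and none lower in stimulated KO than in stimulated WT, beside 4.92% of all tested genes. With library size alone, 10 were higher and none lower. The list median was 0.95 on the log2 scale, beside -0.00 over all tested genes. Cdkn1a was also at its highest level in stimulated KO, without passing edgeR's test against stimulated WT. Any link between Cdkn1a and these genes was not tested. Ccna2 was at 4.34 and 3.18 CPM in stimulated KO and 0.782 and 1.2 CPM in stimulated WT, higher by 1.92 ± 0.30 (adjusted p = 0.0201). Cdc20, an activator of the anaphase-promoting complex, was higher by 1.57 ± 0.26 (adjusted p = 0.0225), and Ccnb1, cyclin B1, by 1.29 ± 0.22 (adjusted p = 0.0253). Birc5 (survivin) was higher by 1.06 ± 0.18 (adjusted p = 0.0251), Top2a (topoisomerase 2α) by 0.93 ± 0.16 (adjusted p = 0.0239) and Cenpf, a kinetochore protein gene with at most 1.36 CPM in stimulated cells, by a fitted 4.21 ± 0.79 (adjusted p = 0.0331). All 6 calls were lost without stimulated KO library 1 (adjusted p = 0.106 for Ccna2, 0.122 for Cdc20, 0.129 for Ccnb1, 0.143 for Birc5, 0.111 for Top2a and 0.123 for Cenpf). Of the 6, Ccnb1 alone held without stimulated KO library 2, and Top2a and Cenpf alone without stimulated WT library 1. Without stimulated WT library 2, Birc5, Ccnb1, Cdc20 and Top2a were lost, while other genes of the list gained a call. Birc5 and Cenpf were also lost without either KO PBS library, and Cenpf without either WT PBS library (adjusted p = 0.0507 to 0.0644). With PBS none of the 21 was called by edgeR or DESeq2, and 4 had an unadjusted p under 0.05, beside 15.4% of all tested genes. In the difference of responses edgeR called none. There 9 of the 21 had an unadjusted p under 0.05, beside 10.7% of all tested genes, and DESeq2 called 3, beside 2.84%.

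Of the 13 ATF4 and CHOP genes, 5 (38.5%) were called lower in stimulated KO and none higher, beside 4.92% of all tested genes, with a list median of -0.89. Beside Sesn2 they were the transcription factor genes Ddit3 (-0.89 ± 0.10, adjusted p = 0.00617) and Atf3 (-0.51 ± 0.09, adjusted p = 0.0259), the asparagine synthetase gene Asns (-1.51 ± 0.17, adjusted p = 0.00676) and the pseudokinase gene Trib3 (-1.85 ± 0.28, adjusted p = 0.0161). None of the 5 calls held without stimulated KO library 1, where another gene of the list was called instead. Asns alone held without stimulated KO library 2. The calls of Atf3 and Trib3 were also lost without stimulated WT library 1 or 2. Adjusted p over these fits reached 0.0545 for Ddit3, 0.147 for Atf3, 0.066 for Asns and 0.115 for Trib3. With PBS edgeR and DESeq2 called none, and 1 of the 13 had an unadjusted p under 0.05, beside 15.4% of all tested genes.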

How the data were processed

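Macrophages of 2 genotypes under 2 treatments gave 2 RNA-seq libraries per group. The authors deposited whole-number read counts for each gene in every library. The submitters' processing notes list mm10, Trimmomatic, Bowtie2 and edgeR and give no versions. How reads were assigned to genes, with which annotation and strand setting, is not given in the sources used here. Symbols and exons came from GENCODE M21, and 55141 of 55401 gene IDs had a symbol.

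All 8 libraries were fitted together in edgeR 4.0.16 (R 4.3.3) with TMM factors, filterByExpr (minimum count 10, minimum total 15), a mean for each group and 4 residual degrees of freedom. Quasi-likelihood F tests were adjusted by Benjamini-Hochberg over 17470 genes within each of 5 comparisons. The fit was also run on simulated counts drawn with the spread estimated from these data. That run cannot check the spread itself, and its outcome is not given here. Standard errors are the unshrunk log2 difference over the root of F, and 95% intervals use the moderated degrees of freedom. CPM values use TMM library sizes. Alternatives were DESeq2's size factors, library size alone, DESeq2 1.42.0, no filter, 5 CPM in 2 libraries, a fit of the compared groups alone, a replicate block and the omission of each library in turn. A group left with 1 library is then assumed to vary like the others. The 10 genes and all lists were chosen with earlier results of these data known. Beside the 10 genes, up to 6 called genes per list and comparison with the smallest adjusted p could be named, with Mdm4, Ppm1d, Cdkn2a, the BCL2 family targets and Mettl3. Values of such a gene outside its own comparison are repeats. Chi-square divided by its degrees of freedom was 38.8 to 81.4 within groups, so no library repeats another. Plots used matplotlib 3.10.9 (Python 3.11.15). Some marker genes of other cell types are not reported here.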

Additional observations from a re-analysis of the deposited data

Results flagged for a closer look

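Among the 10 genes and the list genes that the naming rule covers, the difference between KO and WT in 6 genes had opposite signs after stimulation and with PBS, with no overlap between the genotypes in either treatment. Other genes of the lists, such as Aurka and Rpl5, had the same pattern, and these 2 are named after their values were seen. The share of all tested genes with this pattern was not counted, so the 6 genes stand without a background. Since opposite signs chose the 6 genes, the test of the difference between responses is no independent support for them. Among the 10 genes this was Cdkn1a, with a difference of responses, KO minus WT, of 0.53 on the log2 scale (adjusted p = 0.114 by edgeR). Bax, a pore-forming death effector, had 0.64 (adjusted p = 0.0466) and was the only one of the 6 to pass the threshold. That call was lost in all 8 fits with 1 library left out (adjusted p = 0.0768 to 0.217) and with the replicate number as a block (adjusted p = 0.0762). The others were Thbs1, a matrix protein, with 1.92 (adjusted p = 0.0858), Nqo1, a quinone reductase that stabilises p53, with -1.58 (adjusted p = 0.0959), Phgdh, an enzyme of serine synthesis, with -1.12 (adjusted p = 0.288), and Steap3, a metalloreductase, with -0.24 (adjusted p = 0.608).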

How the results depend on the processing

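Of 740 values recomputed for the 10 genes, 694 kept their direction and their side of the threshold, 11 lost the call, 12 gained it and 23 changed sign. Among all genes between stimulated KO and WT, 860 became 1654 by DESeq2, 503 with only the groups compared and 156 to 594 with 1 library left out, and 4 (library size alone), 2 (DESeq2) or 1 (filter of 5 CPM) of the 10 genes were called. With PBS, 271 became 876, 45 and 80 to 260, and DESeq2 called 1 member. In the difference of responses, 87 became 486 by DESeq2 and 20 to 99 with 1 library left out, and DESeq2 called 1 member. Leaving out 1 library gave 5 to 9 called members after stimulation in WT and 6 to 7 in KO. The cause was not tested.

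No value that changed sign was called. With library size alone the KO to WT difference of Trp53 after stimulation became 0.01, that of Zmat3 with PBS 0.03 (0.00 with only the groups compared), the difference of responses of Aen 0.08 and the response of Bax in WT -0.03. With 1 library left out, the KO to WT differences with PBS ran from -0.03 to 0.12 for Ccng1, -0.02 to 1.06 for Gdf15, -0.16 to 0.28 for Sesn1 and -0.07 to 0.06 for Zmat3. The responses ran from -0.31 to 0.77 for Gdf15 in KO, and for Bbc3 from -0.24 to 0.23 in KO and -0.30 to 0.01 in WT. The difference of responses ran from -0.09 to 0.04 for Aen, -0.22 to 0.21 for Phlda3, -0.13 to 0.30 for Sesn1 and -0.01 to 0.13 for Trp53.

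Libraries with the same replicate number shared little deviation, with correlations of -0.015 to 0.101 between groups. Whether they share a mouse or a batch is not stated, and these correlations cannot decide it. With the replicate number as a block, 672 genes were called between stimulated KO and WT, 229 with PBS, 60 in the difference of responses, 6656 in KO and 6866 in WT, and no call among the 10 genes changed. The KO minus WT difference of Bax was lost (adjusted p = 0.0762).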
